A study of Homo sapiens with 12 samples.

Results

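The cathepsin set comprises 10 genes that encode proteases of the lysosome, CTSB, CTSC, CTSD, CTSF, CTSH, CTSK, CTSL, CTSO, CTSS and CTSZ. They were taken by name from the 58174 genes of the deposited tables, and all 10 were among the 14232 genes that passed the filter on low counts. The set was chosen by CPM (total exon reads of a gene, scaled to a common library size) in siXRN2 against siNT and mock in each line, so the values of the members in that comparison are given as a description without a test. For the members, p-values are given only between siNT and mock and between the lines. The cells were LN229 and U251, 2 established human glioblastoma lines. Each line was reverse transfected with siRNA against XRN2 (siXRN2), with a control siRNA (siNT) or without siRNA (mock), and RNA was taken after 72 hours. XRN2 encodes a nuclear exoribonuclease that degrades RNA in the 5′-to-3′ direction, and the design asks how each transcriptome changes when it is depleted. There were 2 libraries in each of the groups LN229 siXRN2, LN229 siNT, LN229 mock, U251 siXRN2, U251 siNT and U251 mock. Nothing in the labels tells whether the 2 libraries of a group came from separate cultures. The p-values therefore rest on a spread between libraries that may be technical.

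Cathepsins are made as inactive precursors, tagged with mannose 6-phosphate in the Golgi and sorted to the acidic lysosome, where a propeptide is removed and the mature enzyme cuts proteins delivered by endocytosis and autophagy. CTSD is an aspartic protease and the other members are papain-like cysteine proteases, which cystatins hold in check. In glioblastoma and other tumours cathepsins are also known from outside the cell, where they can cut matrix proteins such as collagens and laminins.

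Transcription factors of the TFE family (TFEB, TFE3 and MITF) bind the palindrome CACGTG near the starts of many lysosomal genes, so the promoters of the members were searched for it. The window runs from 250 bases before to 50 bases after the start that RefSeq gives on GRCh38.p14, and entries were at hand for CTSC, CTSD, CTSF, CTSH, CTSL and CTSZ but not for CTSB, CTSK, CTSO and CTSS. CACGTG, which reads the same on both strands, stood in the windows of CTSD and CTSF, 2 of 6 (33.3%), against 2548 of 35116 windows in the whole table (7.26%). Both also held TCACGTG, which contains CACGTG and was searched on both strands, as did 3.71% of all windows. Either motif stood in 6 of 27 windows of other lysosomal hydrolases (22.2%). It stood in 3 of 13 windows of V-ATPase genes, which encode the lysosomal proton pump (23.1%). The first base of the motif lies at −47 in CTSD and at −123 and −51 in CTSF, counted from the start. The windows of CTSD, with the motif near its start, of CTSF, with a pair of motifs, and of CTSC, with none, are shown 5′ to 3′ on the minus strand. They lie at chr11:1763878-1764177 (CTSD), chr11:66568557-66568856 (CTSF) and chr11:88337687-88337986 (CTSC). Capitals mark CACGTG. A match describes the letters and not a site that is bound.
CTSD: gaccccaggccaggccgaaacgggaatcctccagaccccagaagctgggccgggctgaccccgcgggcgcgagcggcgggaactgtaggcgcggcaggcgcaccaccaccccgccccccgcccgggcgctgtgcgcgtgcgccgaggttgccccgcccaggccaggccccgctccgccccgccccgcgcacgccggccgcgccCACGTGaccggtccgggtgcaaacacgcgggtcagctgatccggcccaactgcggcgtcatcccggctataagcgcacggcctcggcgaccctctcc
CTSF: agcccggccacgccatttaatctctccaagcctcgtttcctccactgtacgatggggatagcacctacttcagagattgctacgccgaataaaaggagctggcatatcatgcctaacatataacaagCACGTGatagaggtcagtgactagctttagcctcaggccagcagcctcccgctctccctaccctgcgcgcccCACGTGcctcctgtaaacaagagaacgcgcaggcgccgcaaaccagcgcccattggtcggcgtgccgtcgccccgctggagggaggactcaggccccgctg
CTSC: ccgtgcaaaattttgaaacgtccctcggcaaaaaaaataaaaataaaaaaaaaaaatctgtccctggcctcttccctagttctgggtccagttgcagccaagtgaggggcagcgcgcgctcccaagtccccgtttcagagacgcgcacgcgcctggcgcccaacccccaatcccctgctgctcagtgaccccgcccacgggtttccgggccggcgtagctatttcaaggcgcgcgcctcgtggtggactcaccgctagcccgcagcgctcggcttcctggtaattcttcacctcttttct

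Each library held 4846768 to 7469052 exon reads, and XRN2 itself was lower with siXRN2 than with siNT by 2.90 on the log2 scale in LN229 and by 2.28 in U251. One library stood apart from its replicate in each line. In LN229 siNT replicate 1, introns took 5.58% of gene reads, against 7.6% to 9.55% in the other 11 libraries, and its log2 difference from replicate 2 was lower for longer genes (Spearman rho of −0.504 with exon length over 14232 genes that are not independent of each other, and −0.0297 to 0.0978 in the other replicate pairs). In U251 mock replicate 2, the stress transcripts DDIT3 and HSPA5 were at 403.5 and 19520 CPM, against 15.1 and 1637 CPM in replicate 1. The values most affected by these libraries are also given without them. In bulk RNA, fewer cells with a transcript and less of it per cell cannot be told apart.

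Per length, as the TPM that the authors deposited, a share of transcripts corrected for their length, CTSD led the set in all 6 groups. It averaged 1063 ± 241 TPM in LN229 siXRN2, 952 ± 62.7 TPM in LN229 siNT and 889 ± 56.1 TPM in LN229 mock, and 2472 ± 68.2 TPM in U251 siXRN2, 2205 ± 257 TPM in U251 siNT and 2012 ± 38.5 TPM in U251 mock (SD, n = 2 each). That was 52.9% to 65.9% of the summed TPM of the members in the LN229 libraries and 72.8% to 78.1% in the U251 libraries. The CTSD value rests mostly on reads not counted as unique, as described further on. The length is the annotated exon length of a gene, so the order and shares by TPM depend on the annotation. It was 7428 bases for CTSB and 11421 for CTSC, against 1887 for CTSK and 2366 for CTSL.

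The order below CTSD differed between the lines. In LN229 siNT and LN229 mock CTSB came next, at 240 ± 10.7 and 238 ± 16.0 TPM, followed by CTSK at 161 ± 22.4 and 161 ± 0.529 TPM, CTSL at 139.5 ± 3.01 and 144 ± 6.58 TPM and CTSF at 90.2 ± 19.1 and 95.02 ± 7.87 TPM. In LN229 siXRN2 CTSB stood at 129 ± 22.0 TPM, below CTSK at 183 ± 12.1 TPM and overlapping CTSL at 130 ± 0.144 TPM (SD, n = 2). CTSB thus took 7.51% of the summed TPM of the members in LN229 siXRN2, 14.3% in LN229 siNT and 14.6% in LN229 mock. CTSC, CTSO, CTSS, CTSH and CTSZ followed in LN229 siNT and LN229 mock, where no neighbours in the order overlapped. In LN229 siXRN2, CTSO at 55.9 ± 11.2 TPM stood above CTSC at 31.5 ± 4.16 TPM (SD, n = 2). By CPM, not corrected for length, the order in LN229 siXRN2 was another. The mean CPM of CTSB, at 222, was above those of CTSK at 79.8 and CTSL at 71.2. That of CTSC, at 83.2, was above that of CTSO at 38.0.

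In U251, CTSB and then CTSL followed CTSD in every group. CTSB averaged 271 ± 2.47 TPM in U251 siXRN2, 313.5 ± 14.4 TPM in U251 siNT and 297 ± 14.2 TPM in U251 mock. CTSL averaged 178 ± 1.23 TPM in U251 siXRN2, 196 ± 4.97 TPM in U251 siNT and 188 ± 10.2 TPM in U251 mock (SD, n = 2). CTSC came next in U251 siNT and U251 mock, at 75.6 ± 5.99 and 77.6 ± 3.91 TPM. In U251 siXRN2 it came after CTSZ and CTSF at 53.0 ± 1.75 TPM, and there it overlapped CTSF, which overlapped CTSZ. CTSK and CTSS were lowest in U251, at most 13.4 ± 3.88 and 6.54 ± 0.72 TPM, and overlapped in U251 mock.

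**Figure D1:**
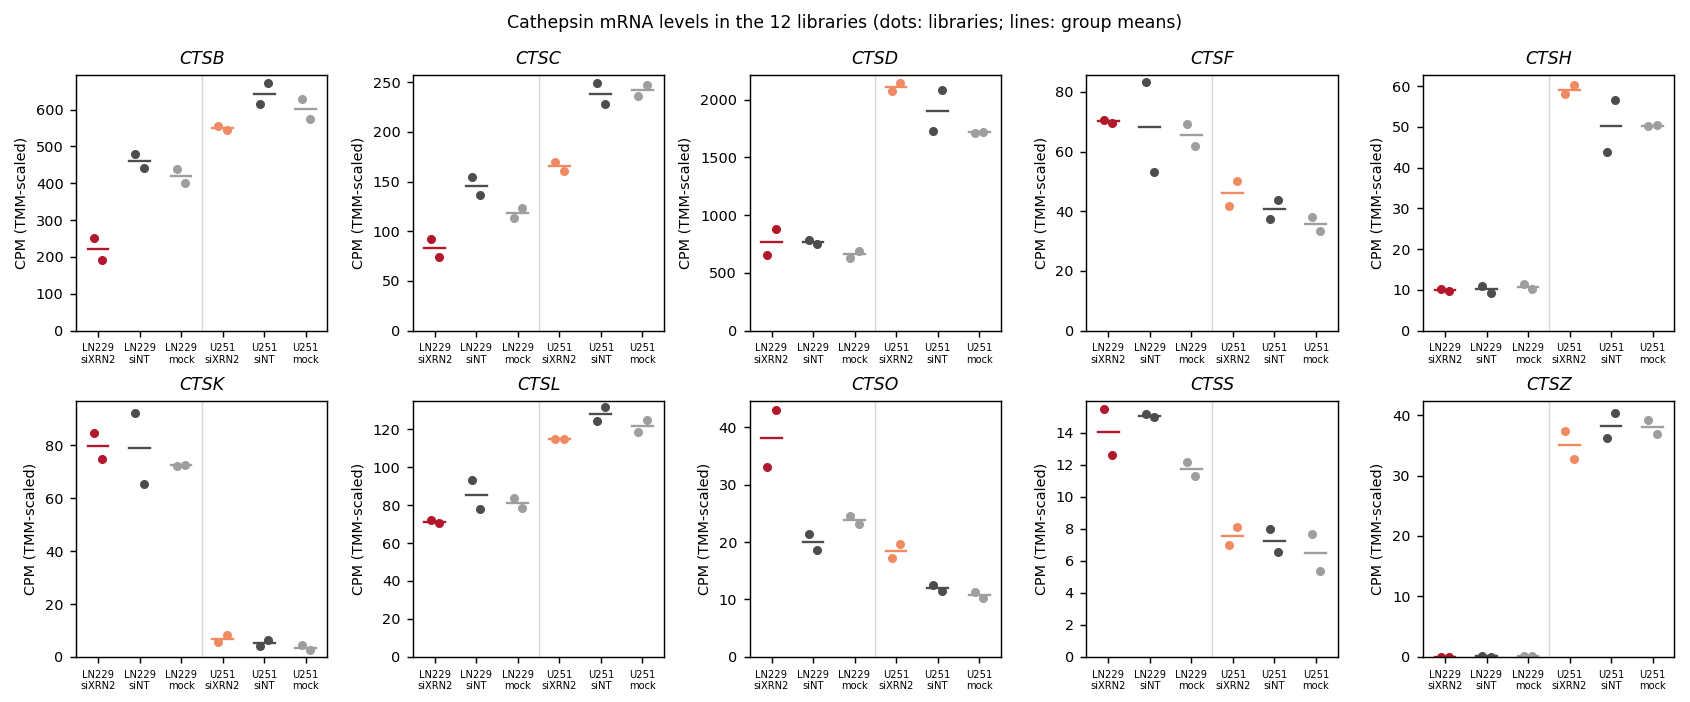
CPM of each cathepsin gene in the 12 libraries, scaled by TMM, with siXRN2, siNT and mock of LN229 at the left of each panel and of U251 at the right; dots are libraries and lines are means of 2, and each vertical axis starts at 0. CTSB, CTSC and CTSL have both siXRN2 libraries below the 4 siNT and mock libraries of the line in both lines, CTSO has both above them, and CTSZ is at or near 0 in LN229.

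CTSB, which cuts within proteins and also removes dipeptides from their ends, differed most from siNT among the endopeptidases in LN229. It had 251.2 and 192 CPM in LN229 siXRN2, against 479 and 441 CPM in LN229 siNT and 440 and 401 CPM in LN229 mock. Both siXRN2 libraries lay below all 4 others, and the groups did not overlap. The mean was 48.2% of that in siNT and 52.7% of that in mock, with log2 fold changes of −1.05 (SE 0.15) and −0.92 (SE 0.15). The replicates of LN229 siXRN2 differed, and the log2 fold change against siNT was −0.87 without replicate 2 and −1.27 without replicate 1. Without LN229 siNT replicate 1 it was −0.96.

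In U251, CTSB was closer to its controls. It had 556 and 544.5 CPM in U251 siXRN2, against 615 and 671 CPM in U251 siNT and 630 and 575 CPM in U251 mock. Again both siXRN2 libraries were below all 4 others, by a smaller margin. The log2 fold changes were −0.23 (SE 0.15) against siNT and −0.13 (SE 0.15) against mock, and the means were 85.5% and 91.3% of the controls. The change against siNT in LN229 minus that in U251 was −0.83 (SE 0.21) for CTSB, −0.73 without LN229 siNT replicate 1, and between −0.37 and 0.31 for the other members without CTSZ. For the members these differences are described only. Over all 14232 genes, 0 (0.0%) passed edgeR's test of the difference between the lines at an adjusted p under 0.05. At an unadjusted p under 0.05 there were 945 genes, and 15 were called by DESeq2.

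CTSL, an endopeptidase with broad specificity, was lower by less. It had 72.1 and 70.3 CPM in LN229 siXRN2, against 93.0 and 78.0 CPM in LN229 siNT and 83.7 and 78.7 CPM in LN229 mock. In U251 it had 114.9 and 115.1 CPM in siXRN2, against 124.5 and 132 CPM in siNT and 118 and 125 CPM in mock. In each line both siXRN2 libraries were the lowest of the 6. The log2 fold changes against siNT were −0.26 (SE 0.13) in LN229 and −0.16 (SE 0.13) in U251, and without LN229 siNT replicate 1 the LN229 value was −0.10.

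CTSC, the dipeptidyl peptidase that activates granule serine proteases in immune cells, was lower in both lines. It had 92.0 and 74.3 CPM in LN229 siXRN2, against 155 and 136 CPM in LN229 siNT and 113 and 123 CPM in LN229 mock. In U251 it had 170 and 161 CPM in siXRN2, against 249 and 228 CPM in siNT and 236 and 248 CPM in mock. The siXRN2 libraries did not overlap the controls in either line. The log2 fold changes were −0.81 (SE 0.15) against siNT and −0.51 (SE 0.14) against mock in LN229, and −0.53 (SE 0.14) and −0.55 (SE 0.14) in U251. In LN229 the value against siNT was −0.68 without siNT replicate 1.

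CTSO, a cysteine cathepsin whose substrates are little known, went the other way. It had 33.1 and 43.0 CPM in LN229 siXRN2, against 21.4 and 18.7 CPM in LN229 siNT and 24.5 and 23.1 CPM in LN229 mock. In U251 it had 17.2 and 19.6 CPM in siXRN2, against 12.6 and 11.5 CPM in siNT and 11.3 and 10.3 CPM in mock. All 4 siXRN2 libraries were above the controls of their line. The mean was 190% of siNT and 160% of mock in LN229 and 153% of siNT and 170% of mock in U251. The log2 fold changes were 0.92 (SE 0.18) against siNT and 0.67 against mock in LN229, and 0.61 (SE 0.19) and 0.77 in U251. Without LN229 siNT replicate 1 the LN229 value against siNT was 1.05. Without U251 mock replicate 2 the U251 values against mock were 0.70 for CTSO, −0.515 for CTSC, −0.20 for CTSB and −0.04 for CTSL.

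The siXRN2 libraries of the other members overlapped at least 1 of the control groups, except those of CTSH in U251. CTSF and CTSK, both endopeptidases, CTSK being known as the collagenase of osteoclasts, had log2 fold changes of 0.04 (SE 0.19) and 0.02 (SE 0.21) against siNT in LN229, where siNT replicates 1 and 2 spanned the siXRN2 values. CTSF had 70.7 and 69.6 CPM in LN229 siXRN2 and 83.3 and 53.2 CPM in LN229 siNT, and CTSK had 84.5 and 75.0 CPM in LN229 siXRN2 and 92.4 and 65.5 CPM in LN229 siNT. Without siNT replicate 1 their log2 fold changes were 0.43 and 0.32, and without siNT replicate 2 −0.25 and −0.21. In U251, CTSK had 5.498 and 8.27 CPM in siXRN2, against 4.14 and 6.34 CPM in siNT and 4.59 and 2.42 CPM in mock, so that it overlapped siNT and not mock. Its log2 fold change against mock was 0.99 (SE 0.36), and 0.57 without U251 mock replicate 2.

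CTSS, the endopeptidase known for trimming the invariant chain of MHC class II, had 15.5 and 12.6 CPM in LN229 siXRN2, 15.1 and 15.0 CPM in LN229 siNT and 12.2 and 11.3 CPM in LN229 mock. Its siXRN2 libraries overlapped siNT and were above mock. CTSH, an aminopeptidase, had 58.0 and 60.3 CPM in U251 siXRN2, against 43.8 and 56.5 CPM in U251 siNT and 50.1 and 50.5 CPM in U251 mock. Both siXRN2 libraries were above the controls, with a log2 fold change of 0.24 (SE 0.15) against siNT that was 0.06 without siNT replicate 1. In LN229 CTSH had 10.2 and 9.64 CPM in siXRN2 and 9.26 to 11.4 CPM in the controls. CTSZ, a carboxypeptidase, had 37.4 and 32.8 CPM in U251 siXRN2, 36.1 and 40.3 CPM in U251 siNT and 39.2 and 36.8 CPM in U251 mock, and the siXRN2 values overlapped both controls. The other log2 fold changes against siNT were −0.09 for CTSS and −0.02 for CTSH in LN229, and 0.05 for CTSS, 0.18 for CTSF and −0.12 for CTSZ in U251.

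**Figure D2:**
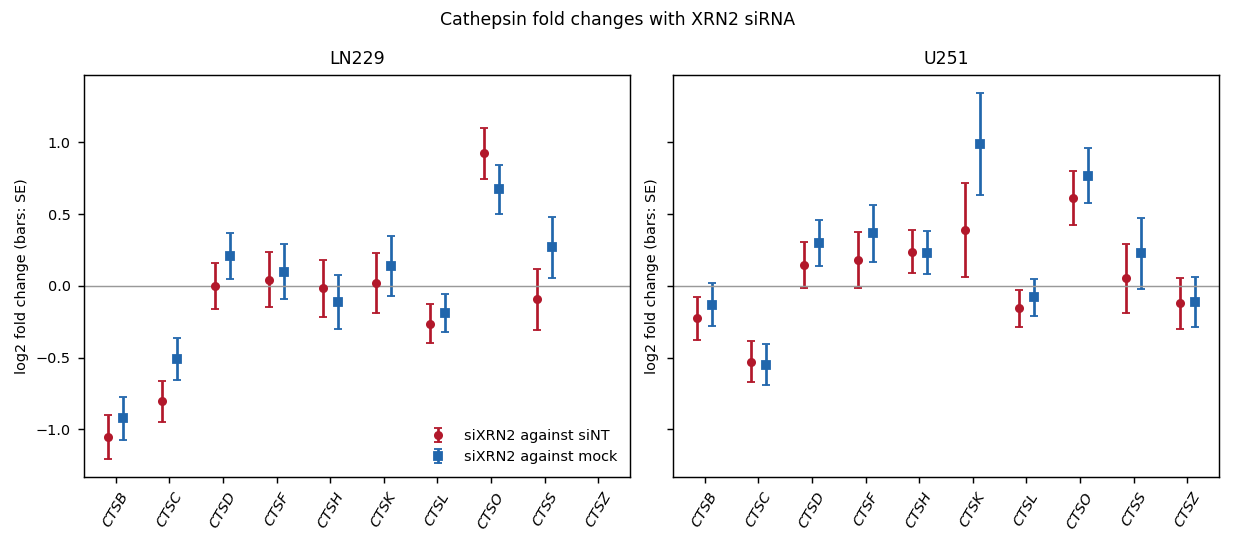
Log2 fold change of each member with siXRN2 against siNT (circles) and against mock (squares) in LN229 and U251, with bars for the SE of the fit; CTSZ in LN229 is left out because its siXRN2 libraries held 0 reads. CTSB and CTSC lie lowest in LN229, CTSC lowest in U251, and CTSO is above 0 in all 4 comparisons.

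The fit over all genes also covers the members, and its calls for them with siXRN2 are listed only as a description, since these comparisons chose the set. At edgeR's adjusted p under 0.05 the called genes in LN229 siXRN2 against siNT included 3 of 10 members, and 3.16% of all tested genes. CTSO was the 1 higher member (background 1.21%) and CTSB and CTSC the 2 lower members (background 1.95%). Against mock in LN229 the call was CTSB alone, lower, beside 1.29% of all genes in either direction, 0.738% lower and 0.548% higher. In U251, 0 of 10 members were called against siNT, beside 0.00703% of all genes (1 gene, with 553 at an unadjusted p under 0.05 and 9 by DESeq2), and 0 of 10 against mock, beside 0.0492%. Nothing is read from these counts. The comparisons with siNT and with mock share the siXRN2 libraries. Without LN229 siXRN2 replicate 2, 1 gene was called against siNT in LN229, and without LN229 siNT replicate 2, 3296 were.

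By order alone, both siXRN2 libraries lay below the 4 controls of the line for CTSB, CTSC and CTSL in LN229 (background 16.9%), in U251 (background 10.6%) and thus in both lines (background 4.38%). They lay above the controls for CTSO in LN229 (background 16.0%), for CTSO and CTSH in U251 (background 13.8%) and for CTSO in both lines (background 4.52%). Centred within each line, the log2 CPM of CTSC and CTSO ran in opposite directions over the 12 libraries (Pearson r = −0.951), as did those of CTSB and CTSO (−0.815), while CTSB and CTSC (0.836) and CTSB and CTSL (0.808) ran together. These correlations share the libraries and the contrast that chose the members, and describe them only.

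Reads in CTSB introns did not run with its exon reads in LN229. There were 28 and 28 intron reads in the LN229 siXRN2 libraries, 12 and 21 in LN229 siNT and 19 and 29 in LN229 mock. Summed over each group and divided by all gene reads (RPM, scaled as CPM is), this was 4.30 (exact Poisson interval at 95%, 3.25 to 5.59) in siXRN2, 2.91 (2.00 to 4.09) in siNT and 3.26 (2.40 to 4.32) in mock. The intervals cover counting error only, and all 3 overlap. For CTSC the values were 2.997 (2.13 to 4.10), 2.56 (1.71 to 3.67) and 3.33 (2.46 to 4.40), and for CTSO 2.23 (1.49 to 3.20), 0.705 (0.304 to 1.39) and 1.09 (0.621 to 1.76) in the same order. For CTSO there were 13 and 16 intron reads in LN229 siXRN2, 4 and 4 in LN229 siNT and 6 and 10 in LN229 mock. The CTSO interval in siXRN2 lay above that in siNT and overlapped that in mock, and LN229 siNT replicate 1 is the library with the lowest share of intron reads over all genes.

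Few CTSD reads were counted as unique to the gene. Of its exon reads, 1.24% to 2.43% per library were counted as unique, while for the other 9 members 100% were, and the median over all tested genes was 99.9%. CTSD (ENSG00000117984; chromosome 11, 1752752 to 1764573, minus strand) overlaps the protein-coding model AC068580.4 (ENSG00000250644; 1734821 to 1763954), which lies on the same strand. The authors' expression value was 49.5% of the CTSD exon reads in LN229 siNT replicate 1 and 58.3% to 59.8% in the other libraries. The deposited TPM of CTSD follows its total exon reads and not that value. As total exon reads, CTSD had 652 and 878 CPM in LN229 siXRN2, against 787 and 747 CPM in LN229 siNT and 631 and 692 CPM in LN229 mock. In U251 it had 2076 and 2143 CPM in siXRN2, against 1727 and 2083 CPM in siNT and 1714 and 1720 CPM in mock. Total reads overlapped between siXRN2 and siNT in both lines. By total exon reads, AC068580.4 had 75.6 and 125 CPM in LN229 siXRN2. It had 70.2 and 66.0 CPM in LN229 siNT and 52.3 and 59.0 CPM in LN229 mock. In U251 its siXRN2 and siNT libraries overlapped. Its part in the CTSD values was not tested.

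Counted by unique exon reads alone, CTSD gave another value in LN229. There were 68 and 62 unique reads in LN229 siXRN2, 52 and 108 in LN229 siNT and 79 and 104 in LN229 mock. The log2 fold change against siNT was −0.54 by unique reads and −0.00 (SE 0.16) by total reads, and against mock −0.36 and 0.21. The CPM of unique reads, not scaled by TMM, were 11.5 and 13.9 in siXRN2 and 12.5 and 21.7 in siNT, which overlap. In LN229 mock they were 15.3 and 15.9, above both siXRN2 libraries. In U251 the values against siNT were −0.02 by unique and 0.15 by total reads. The response of CTSD in LN229 is therefore reported as uncertain.

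**Figure D3:**
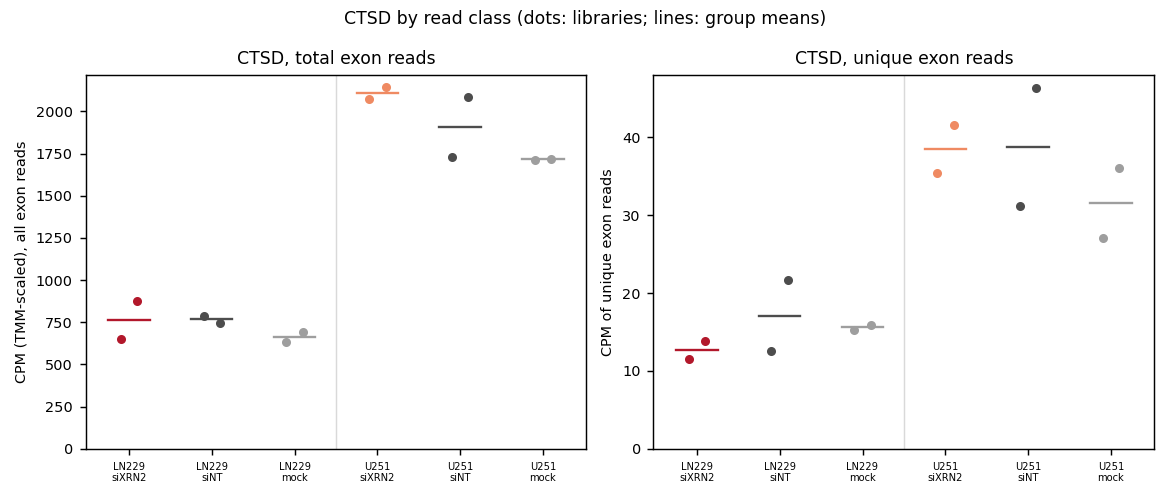
CTSD in the 12 libraries as CPM of total exon reads (left, scaled by TMM) and as CPM of unique exon reads (right, not scaled by TMM). Dots are libraries, lines are means of 2 and vertical axes start at 0. The unique reads are few, 52 to 250 per library, and the means of LN229 siXRN2 and LN229 siNT lie close together in the left panel, while in the right panel siXRN2 is lower.

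Between siNT and mock, a comparison that did not choose the members, no member differed past the threshold in either line. The log2 differences ran from −0.25 (CTSO) to 0.36 (CTSS) in LN229 without CTSZ, and from −0.02 (CTSC) to 0.60 (CTSK) in U251. The CTSK value was 0.18 without U251 mock replicate 2. Without LN229 siNT replicate 1, CTSF, CTSK and CTSL in LN229 were at −0.30, −0.15 and −0.06, against 0.06, 0.12 and 0.07 with it. The lowest adjusted p of edgeR's quasi-likelihood test was 0.802 in LN229 and 0.973 in U251. CTSC in LN229 had 155 and 136 CPM in siNT and 113 and 123 CPM in mock, without overlap, at 0.30 (SE 0.14; edgeR unadjusted p = 0.0584, adjusted p = 0.802), and at 0.20 without siNT replicate 1. Over all genes 0 (0.0%) were called in either line, with 647 and 682 at an unadjusted p under 0.05, and DESeq2 called 1 gene in LN229. For CTSB the log2 difference of siNT minus mock was 0.13 (SE 0.15) in LN229 and 0.09 (SE 0.15) in U251.

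The lines themselves differed in every cathepsin of the set. In LN229, CTSK, CTSO, CTSF and CTSS were higher than in U251, and CTSB, CTSL, CTSC, CTSD, CTSH and CTSZ were lower. This held in mock and in siNT at edgeR's adjusted p under 0.05, with 4 members higher and 6 lower in each. Of all tested genes, 54.9% were called in mock (28.0% higher and 26.9% lower) and 54.5% in siNT (28.4% higher and 26.1% lower), so a call between the lines is common. CTSZ passed the filter on low counts through U251 alone and could not but differ. The lines were grown in different media with different shares of serum, so line and medium cannot be told apart.

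The greatest contrasts were in CTSZ, CTSK and CTSH. CTSZ had 2 reads in the LN229 mock libraries together, against 433 in U251 mock, and 1 in LN229 siNT, against 456 in U251 siNT. Scaled by library size, U251 held 236 times the LN229 level in mock (exact interval 65.0 to 1960, counting error only) and 374 times in siNT (66.8 to 14800). In siXRN2 LN229 had 0 reads and U251 446, at least 131-fold lower in LN229 against a floor of 3 reads over the group.

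CTSK ran in the opposite direction, with 72.2 and 72.7 CPM in LN229 mock, against 4.59 and 2.42 CPM in U251 mock. The libraries of the lines lay far apart. The log2 fold change of LN229 over U251 was 4.39 (SE 0.29; edgeR adjusted p = 6.28e-08) in mock and 3.92 (SE 0.27; adjusted p = 9.90e-08) in siNT. It was 3.97 in mock without U251 mock replicate 2 and 3.64 in siNT without LN229 siNT replicate 1. CTSH had 11.4 and 10.2 CPM in LN229 mock, against 50.1 and 50.5 CPM in U251 mock, which put LN229 at −2.23 on the log2 scale (SE 0.17; edgeR adjusted p = 2.36e-07), and at −2.32 in siNT.

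CTSD was at −1.38 (SE 0.16) in mock and −1.31 in siNT, with edgeR adjusted p of 1.25e-05 and 1.88e-05, and at −1.20 and −1.31 by unique reads. CTSC was at −1.03 and −0.71 and CTSL at −0.58 and −0.59, with edgeR adjusted p between 5.25e-05 and 0.00224. CTSO was at 1.14 and 0.73, CTSF at 0.88 and 0.745 and CTSS at 0.86 and 1.05, with edgeR adjusted p from 0.000229 to 0.00728. Without U251 mock replicate 2, CTSS was at 0.61 in mock (edgeR adjusted p = 0.0772), and without LN229 siNT replicate 1, CTSF was at 0.38 in siNT (0.0644).

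CTSB differed least between the lines, at −0.52 (SE 0.15; edgeR adjusted p = 0.0102) in mock and −0.48 (SE 0.15; adjusted p = 0.0152) in siNT. This call depended on the scaling. Without TMM factors the median over all genes moved from 0.03 to 0.21 in mock and from 0.04 to 0.19 in siNT, and CTSB stood at −0.34 (edgeR adjusted p = 0.0575) and −0.33 (adjusted p = 0.0622). Fitted with the compared groups alone, CTSB stood at −0.47 in siNT (edgeR adjusted p = 0.0572). It also missed the threshold without LN229 mock replicate 2 (edgeR adjusted p = 0.0935), without U251 mock replicate 1 (0.0511) and without U251 siNT replicate 2 (0.107).

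**Figure D4:**
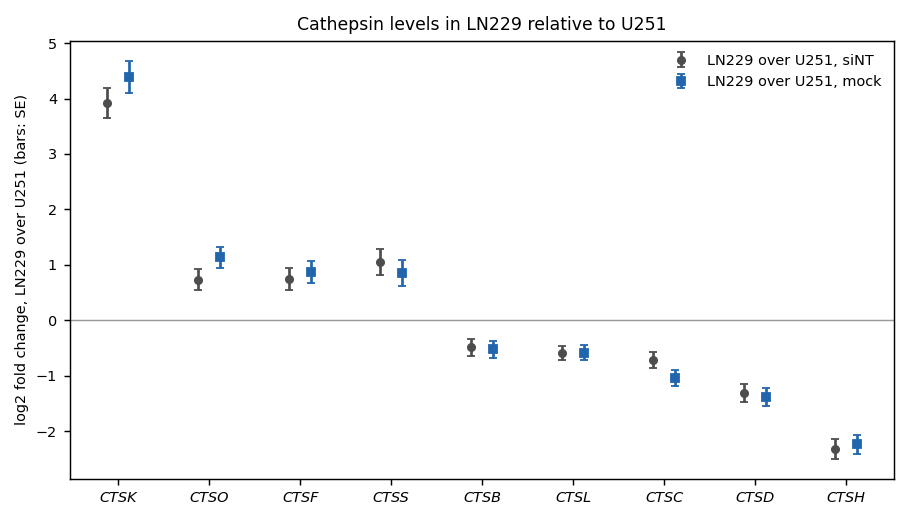
Log2 fold change of LN229 over U251 for 9 cathepsin genes in siNT (circles) and mock (squares), with bars for the SE; CTSZ is left out because LN229 held at most 2 reads in a group. CTSK lies at 3.92 and 4.39, CTSH at −2.32 and −2.23, and CTSB is nearest to 0.

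Markers of cells known for cathepsins were compared beside these levels. Of 12 macrophage and microglia markers, AIF1, TYROBP, C1QA, C1QB and CD163 had 0 reads in all 12 libraries, and the summed level was 2.63 to 6.65 CPM in LN229 siXRN2, 10.7 to 11.1 CPM in LN229 siNT, 8.63 to 10.4 CPM in LN229 mock and 50.1 to 71.9 CPM in U251, where CD68 took 47.4 to 69.7 CPM. Of 5 osteoclast markers, DCSTAMP and OCSTAMP had 0 reads in all 12, and ACP5 was at 16.8 to 27.0 CPM in LN229 and 0.956 to 2.03 CPM in U251. The 6 genes of MHC class II and its factors, the known setting of CTSS, summed to 3011 to 4284 CPM in LN229 and to 1.41 to 2.26 CPM in U251. Their part in the levels of CTSS, CTSK and CTSZ was not tested. Of 10 glial and neural stem markers, 8 to 10 had reads in the LN229 groups and 7 to 9 in the U251 groups, with VIM and NES in all libraries, while GFAP was at 1.05 to 4.32 CPM in LN229 and 2351 to 6903 CPM in U251. Their sum was 2783 to 3679 CPM in LN229 siXRN2, 4315 to 5765 CPM in LN229 siNT and 4310 to 4390 CPM in LN229 mock.

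Of 5 fibroblast and pericyte markers, 4 were measured, and their sum was also lower in LN229 siXRN2, at 61.4 to 80.3 CPM, than in LN229 siNT at 109.5 to 123 CPM and LN229 mock at 117.5 to 124 CPM. LUM, a proteoglycan of the matrix, fell against siNT by 1.31 on the log2 scale (SE 0.24; edgeR adjusted p = 0.0222) and against mock by 1.36 (SE 0.23; adjusted p = 0.0253), and XRN2 was the 1 gene still called without LN229 siXRN2 replicate 2. In U251 the sum was 968 to 970.3 CPM in siXRN2, 1035 to 1069 CPM in siNT and 644 to 982.5 CPM in mock. The macrophage, glial and fibroblast sums thus lay lower in LN229 siXRN2 than in its controls, as CTSB, CTSC and CTSL did, and their part in those values was not tested. No tested macrophage or glial marker was called there against siNT or mock. CD68, at 5.02 and 1.40 CPM, made up much of the macrophage sum in LN229 siXRN2. VIM, at 2473 and 1870 CPM, made up much of the glial sum there. VIM, NES and SOX2 lay below all controls of the line, while S100B and GFAP overlapped siNT. S100B, at 426 and 327 CPM in siXRN2, was above LN229 mock at 318 and 315 CPM. The osteoclast and MHC class II sums did not lie below the controls.

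Of 29 tested further lysosomal hydrolases, a list drawn up with earlier results of these data known, 3 fell and 0 rose against siNT in LN229. Over all tested genes, 1.95% were called lower and 1.21% higher in that comparison. The hydrolases described here are NEU1, the sialidase, and GLB1, beta-galactosidase. NEU1 had 29.7 and 22.1 CPM in LN229 siXRN2, against 85.3 and 77.1 CPM in LN229 siNT and 72.5 and 81.0 CPM in LN229 mock. GLB1 had 55.6 and 46.3 CPM in siXRN2, against 112 and 107 CPM in siNT and 108 and 109 CPM in mock. For both genes the siXRN2 libraries lay below all controls. The log2 fold changes against siNT were −1.64 (SE 0.17; edgeR adjusted p = 0.00179) for NEU1 and −1.10 (SE 0.14; adjusted p = 0.00778) for GLB1 (−1.535 and −1.03 without LN229 siNT replicate 1), and both also fell against mock (edgeR adjusted p = 0.00297 and 0.00697). Without LN229 siXRN2 replicate 2, whose values were the lower ones, the edgeR adjusted p for NEU1 and GLB1 was 0.0660 and 0.115 against siNT and 0.0797 and 0.117 against mock.

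The genes most like CTSB over the 12 libraries, by Pearson r of log2 CPM centred within each line, included both hydrolases. Among the 5 genes most like it were NEU1 (r = 0.984), RANGAP1 (0.984), which activates the nuclear transport GTPase Ran, GLB1 (0.983) and TMEM237 (0.981), a protein of the ciliary transition zone. For CTSL the genes were PHC2 (0.960), CD320 (0.952), TMED9 (0.949), ARHGDIA (0.942) and ARF1 (0.940), and for CTSD ZNF837 (0.937), EDC4 (0.937), SOX12 (0.933), MIER2 (0.915) and CYP2D7 (0.913). The likeness uses the same libraries as the comparison with siXRN2, so it describes them and lends it no support.

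**Figure D5:**
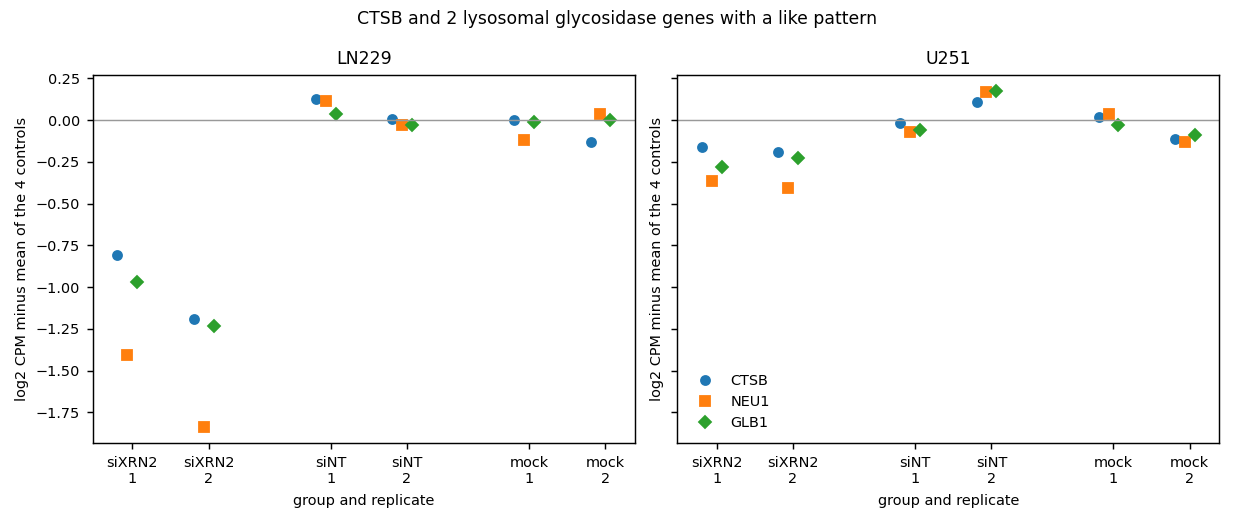
Log2 CPM minus the mean of the 4 siNT and mock libraries of the line, for CTSB, NEU1 and GLB1 in each library of LN229 (left) and U251 (right). The siXRN2 libraries lie between −1.84 and −0.81 in LN229, against −0.13 to 0.13 for its controls, and between −0.41 and −0.16 in U251, against −0.13 to 0.17 for its controls.

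Most of the other genes of the pathway were not called with siXRN2. In LN229 against siNT, 1.95% of all tested genes were called lower and 1.21% higher, the shares beside the list counts that follow. Against mock these shares were 0.738% and 0.548%. The median log2 fold change of the 29 hydrolases against siNT in LN229 was 0.05, beside −0.00 over all genes. Of 14 tested genes in a list mostly of lysosomal membrane proteins, 3 fell and 0 rose. They were CD63, a tetraspanin, by 0.91 (edgeR adjusted p = 0.0222), SCARB2, the receptor that carries glucocerebrosidase, by 0.85 (adjusted p = 0.0271) and NPC2, a soluble cholesterol carrier, by 0.67 (adjusted p = 0.0433). Without LN229 siNT replicate 1 these 3 had edgeR adjusted p of 0.0666, 0.0726 and 0.162, and without LN229 siXRN2 replicate 2 of 0.303, 0.309 and 0.398. Against mock SCARB2 alone fell (0.0400). The list median was 0.06.

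Sorting and inhibitor genes gave no calls. Of 15 genes of activation and sorting, 0 passed in LN229 (median 0.08), and LGMN, the asparaginyl endopeptidase that matures several cathepsins, was at −0.41 (SE 0.16; edgeR adjusted p = 0.151). Of 4 tested cystatins and other inhibitors 0 passed (median −0.23), with CST3, cystatin C, at −0.26 (SE 0.19; edgeR adjusted p = 0.427). Of 16 subunits and accessory proteins of the V-ATPase, the proton pump that acidifies lysosomes, 0 passed (median 0.04), and of 14 autophagy genes 0 (median 0.09), where ATG5 was at −0.55 (SE 0.15; edgeR adjusted p = 0.0583).

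Of 11 tested TFE factors and regulators, 2 rose against siNT in LN229, MITF by 0.73 (SE 0.18; edgeR adjusted p = 0.0463) and FNIP1, a partner of folliculin, by 0.73 (SE 0.18; adjusted p = 0.0482), with a list median of 0.21. Without LN229 siNT replicate 1 neither passed (edgeR adjusted p = 0.172 and 0.167), nor without LN229 siXRN2 replicate 2 (0.377 and 0.413). Against mock neither passed while RRAGD, a Rag GTPase, rose by 1.09 (SE 0.22; edgeR adjusted p = 0.0328, and 0.445 without LN229 siXRN2 replicate 2). Of 9 tested matrix genes that cathepsins can cut, LAMC1, a laminin chain, rose by 0.75 (SE 0.16; edgeR adjusted p = 0.0295), with 0.0527 without LN229 siNT replicate 1, 0.289 without LN229 siXRN2 replicate 2 and 0.0742 against mock. The calls of CD63, SCARB2, NPC2, MITF, FNIP1, LAMC1 and RRAGD were also lost on leaving out certain single libraries of other groups, those of U251 included, while their direction stayed. In U251, 0 genes of the 9 lists of pathway genes passed against siNT or mock, beside 0.00703% and 0.0492% of all genes.

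Of the 5 other cathepsin genes outside the set, 3 were tested. CTSA, a serine carboxypeptidase, also shields NEU1 and GLB1 in a lysosomal complex. It had 544.5 and 698 CPM in LN229 siXRN2, against 543 and 469 CPM in LN229 siNT and 471.5 and 448 CPM in LN229 mock. Both siXRN2 libraries thus lay above the controls, 1 of them narrowly, and not below them as those of its partners did. In U251 it had 205 and 219 CPM in siXRN2, against 178.5 and 180 CPM in siNT and 175 and 156 CPM in mock, again above. The log2 fold change of CTSA against siNT in LN229 was 0.30 (SE 0.15; edgeR adjusted p = 0.260). CTSV, a close relative of CTSL, had 4.21 and 2.98 CPM in LN229 siXRN2, against 9.28 and 5.90 CPM in LN229 siNT, and its fitted change was −1.05 on the log2 scale (SE 0.33; edgeR adjusted p = 0.0897). CTSE did not exceed 2.24 CPM in any library, and CTSG had 0 reads in all 12 libraries. In mock, all 3 were called higher in LN229 than in U251, beside 28.0% of all genes. On the log2 scale CTSA was 1.47 higher (edgeR adjusted p = 4.03e-06) and CTSV 0.87 higher (adjusted p = 0.0425). CTSE was 6.43 higher (adjusted p = 0.00278), with 14 and 10 reads in LN229 mock and 0 in U251 mock. In siNT only CTSA was called, beside 28.4% of all genes higher.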

How the data were processed

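RNA-seq of 12 libraries, 2 in each of 6 groups, was used as tables of genes. The authors deposited, per the file headers, counts of total, unique and intron reads per gene, together with an expression value, RPKM and TPM. RPKM as deposited by the authors was not used further, and TPM served only to compare levels between genes. No aligner or counter is given in the sources used here. The submitters' processing notes name hg19, while 56000 of 57836 gene positions (96.8%) equal those of GENCODE 29 on GRCh38. The kit keeps no strand, so reads of genes that overlap on opposite strands cannot be told apart. CTSD and AC068580.4 lie on the same strand, where strand would not separate their reads.

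Total exon counts were filtered with filterByExpr (at least 10 reads, 15 in total), which left 14232 genes. They were scaled by TMM and fitted over all 6 groups with edgeR 4.0.16 (quasi-likelihood test, limma 3.58.1, R 4.3.3), with Benjamini-Hochberg adjustment over all tested genes at 0.05. DESeq2 1.42.0 was an alternative, beside no filter, no TMM, unique reads, the compared groups alone, a replicate block and leaving out each library. The procedure was tested on simulated data. Same-numbered libraries did not deviate together (r from −0.0676 to 0.0963). Members and gene lists were chosen with earlier results of these data known. From each list, up to 4 genes past the threshold were named by smallest p, or else up to 2 with the smallest p, and for CTSB, CTSD and CTSL the 5 genes with the most like pattern. Intron intervals are exact Poisson intervals, and 3 reads correspond to 0.381 to 0.605 CPM. One gene that this rule names is not reported here.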

Additional observations from a re-analysis of the deposited data

How the results depend on the processing

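Counts of called genes moved most with the processing. In LN229, siXRN2 against siNT gave 773 genes by DESeq2, 1550 without the low-count filter and 4 with the compared groups alone, and siXRN2 against mock gave 412, 1026 and 103. In U251 the same settings gave 9, 69 and 497 against siNT, with 4 by unique reads, and 34, 502 and 1 against mock. For siNT against mock, DESeq2 gave 1 gene and the unfiltered fit 70 in LN229, and the unfiltered fit gave 247 in U251. The difference in response gave 15 by DESeq2 and 144 unfiltered. The causes were not tested. Leaving out single libraries gave 1 to 3296 genes for LN229 siXRN2 against siNT, 1 to 8 in U251, 1 to 658 and 1 to 768 against mock, 0 to 1913 and 0 to 475 for siNT against mock, 6060 to 8765 between the lines in mock, 6017 to 8136 in siNT, 9 to 10 members between the lines and 0 to 1115 for the difference in response. With the replicate number as a block, 573 and 1 genes were called against siNT and 215 and 7 against mock, 0 and 1 for siNT against mock, and 10 of 10 members between the lines. Whether the shared numbers pair the libraries is not told by the labels. Among the members, XRN2 and the genes of the wider lists, for which the alternatives were run gene by gene, no called value reversed.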
